A study of Mus musculus with 8 samples.

Results

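The mRNAs of the mitochondrial genome and 28 nuclear genes that copy, transcribe, process or translate that genome were followed in QF muscle of Grpel1 knockout mice. The 39 members were taken by gene symbol from the 14012 genes of the count table: all 11 mRNAs that the table places on the mitochondrial chromosome, and a list of nuclear factors sorted by role into 5 for copying and packaging of mtDNA, 6 for transcription, 12 for RNA processing and stability and 5 for translation. All 39 were found, and none was dropped for low counts. Quadriceps femoris (QF) is a large thigh muscle, and GRPEL1 is a nucleotide exchange factor of the mitochondrial HSP70 that draws proteins into the matrix. RNA came from 4 mice labelled Grpel1 skm-/- and 4 mice labelled Grpel1 flox/flox, 1 polyA library per mouse. In the knockouts, floxed Grpel1 alleles are deleted by a Cre-ERT2 recombinase that the human skeletal α-actin (HSA) promoter drives in muscle fibres and that tamoxifen switches on, so the other cells of the muscle keep the gene. The controls carry the same floxed alleles. The labels list no treatment and no age, and whether the control mice of these libraries were given tamoxifen is not stated, so effects of tamoxifen and of the deletion cannot be told apart.

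Mitochondria keep a small circular genome in many copies per cell, wrapped by the protein TFAM into nucleoids and copied by the polymerase POLG. A dedicated RNA polymerase, POLRMT, transcribes both strands with TFAM and TFB2M into long precursors, which are cut at the tRNAs that lie between most of the genes. Most of the mRNAs are then polyadenylated, and they are stabilized and translated on mitochondrial ribosomes. The encoded proteins are core subunits of respiratory complexes I, III and IV and of ATP synthase, and ND6 is the 1 mRNA gene transcribed from the opposite strand. Skeletal muscle is rich in these transcripts, while every protein that makes them is encoded in the nucleus and imported.

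The mtDNA genes sit on the mitochondrial chromosome of GRCm38 in the order ND1 (2751 to 3707), ND2 (3914 to 4951), COX1 (5328 to 6872), COX2 (7013 to 7696), ATP6 (7927 to 8607), COX3 (8607 to 9390), ND3 (9459 to 9806), ND4 (10167 to 11544), ND5 (11742 to 13565), ND6 (13552 to 14070, minus strand) and CYTB (14145 to 15288). Each has a single exon. ND4L, ATP8 and the rRNAs were not analysed here. The nuclear genome holds pseudogene copies of stretches of mtDNA, and the authors left out read pairs that map to several places, so the sequence of each mRNA was compared with the nuclear transcripts of GENCODE M21. For 4 of the 11 mRNAs nearly every window of 75 bases occurred exactly in a nuclear transcript: 607 of 610 windows (99.5%) in COX2, 604 of 607 (99.5%) in ATP6, 709 of 710 (99.9%) in COX3 and 268 of 274 (97.8%) in ND3. Their start is shown for COX2 beside the pseudogene Gm28661, and that of COX1, which has differences, beside the pseudogene Gm13340. Capitals mark bases that differ.
COX2, chrM:7013-7087, plus strand: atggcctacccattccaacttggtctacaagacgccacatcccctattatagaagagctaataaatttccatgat
Gm28661, chr1:24615491-24615565, minus strand: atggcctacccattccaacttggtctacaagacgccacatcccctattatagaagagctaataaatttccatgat
COX1, chrM:5328-5402, plus strand: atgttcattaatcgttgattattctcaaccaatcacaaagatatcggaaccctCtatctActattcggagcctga
Gm13340, chr2:22589573-22589647, minus strand: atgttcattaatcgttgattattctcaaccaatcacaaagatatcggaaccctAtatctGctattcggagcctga
Over these 75 bases COX2 and Gm28661 differed at 0 positions and COX1 and Gm13340 at 2. The share of windows found in a nuclear transcript was 61.5% in ND4 (Gm28439), 39.8% in COX1, 5.71% in ND2 and 1.66% in ND5, and it was 0% in ND1, CYTB and ND6.

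The counts followed this division. COX2, ATP6, COX3 and ND3 had at most 151 counts in any library, while each of the other 7 mRNAs had at least 24406. The 4 sparsely counted mRNAs together held 0.0149% to 0.0248% of a library's mtDNA counts. Per kb of exon the mean of the controls was 22495 CPM for COX1, 16788 for CYTB, 16113 for ND1, 11844 for ND2, 7338 for ND6, 6347 for ND5 and 5963 for ND4. It was 12.04 for COX2, 7.85 for COX3, 5.48 for ATP6 and 1.90 for ND3 on the same scale, where CPM is the count scaled to a common library size after edgeR's TMM factor for composition. The levels of these 4, and to a lesser degree those of ND4 and COX1, therefore hold only reads that map uniquely and cannot be set against the other mRNAs as abundance.

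**Figure D1:**
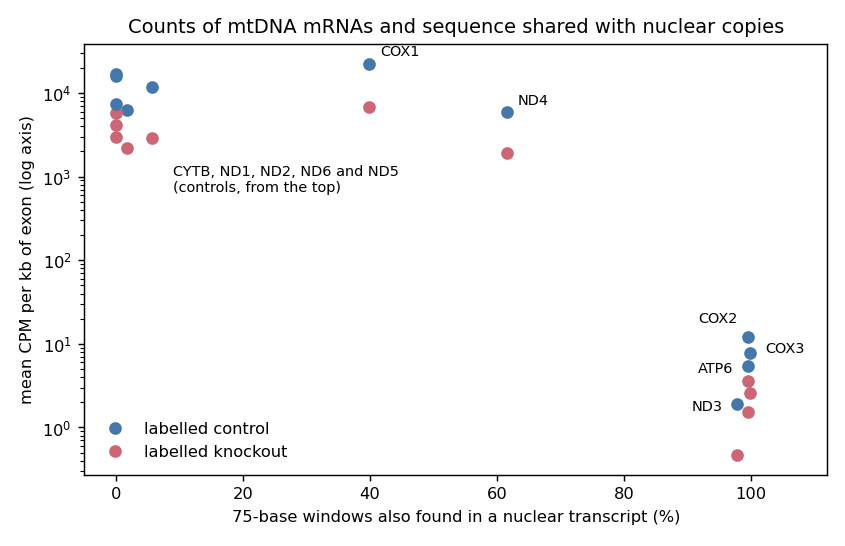
Each of the 11 mtDNA mRNAs by the share of its 75-base windows that occur exactly in a nuclear transcript (horizontal, %) and its mean CPM per kb of exon in each group (vertical, log axis, n = 4 libraries per group). The 4 mRNAs at 97.8% to 99.9% reach at most 12.04 CPM per kb in the controls, and the other 7 reach at least 5963.

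The 8 libraries held 16017565 to 20361144 counts, with TMM factors from 0.747 to 0.844 in the control libraries and 1.19 to 1.33 in the knockouts. The targeted gene, Grpel1 (chromosome 5, 36465185 to 36474077), did not check the labels: it had 69.6, 71.2, 68.8 and 64.1 CPM in control replicates 1 to 4 and 69.1, 71.9, 60.3 and 59.9 CPM in knockout replicates 1 to 4, with a log2 fold change of -0.066 ± 0.078 (SE, adjusted p = 0.487), so the groups are named as labelled and every direction depends on the labels. The Grpel1 count covers the whole gene and all cells of the muscle, and reads on the floxed part were not counted apart. Throughout, fold changes are labelled knockout over labelled control and were tested across all genes with the quasi-likelihood test of edgeR and the Benjamini-Hochberg method, with a limit of 0.01 on the adjusted p. At that threshold 44.7% of all genes were called, 23.6% higher and 21.1% lower, and in 53.4% the groups did not overlap. The samples are whole muscle, in which fewer cells of a type and less RNA per cell cannot be told apart. The summed level of 10 muscle fibre markers ran from 219600 to 285000 CPM in the control libraries and from 77080 to 107800 in the knockouts, with 8 of the 10 called lower and 1 higher. That of 8 macrophage markers ran from 59.3 to 160 against 141 to 260 CPM, of 8 adipocyte markers from 254 to 1786 against 779 to 2952, of 7 endothelial markers from 334 to 498 against 260 to 283 and of 6 fibroblast markers from 1369 to 1899 against 559 to 818. The 5 blood markers summed to 41.1 to 102 against 8.61 to 96.7 CPM and the 6 nerve and Schwann cell markers to 69.9 to 179 against 92.6 to 145. No marker was at 0 in all libraries, and the part of these shifts in the results below was not tested.

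The mitochondrial mRNAs were lower in the libraries labelled knockout. Of the 11, 10 fell and 0 rose (90.9% called, beside 44.7% of all genes and 21.1% called lower), and in all 11 the groups did not overlap (beside 53.4% of all genes). The median log2 fold change of the 11 was -1.72, while that of all genes was 0.065. Of the 14012 genes 5.17% had a log2 fold change at or below that of ND6, the least reduced of the mRNAs.

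Among the subunits of complex I, which takes electrons from NADH, ND1 had 16566, 15091, 15677 and 14345 CPM in control replicates 1 to 4 and 4333, 3272, 4186 and 3958 CPM in knockout replicates 1 to 4. ND2 had 12794, 12292, 11959 and 12132 CPM in the control libraries and 3187, 2288, 3218 and 3179 CPM in the knockouts. In both genes every knockout library lay far below every control, with knockout 2 the lowest. The log2 fold change was -1.97 ± 0.13 for ND1 (SE, adjusted p = 1.3e-06), which left 25.5% of the control level, and -2.05 ± 0.14 for ND2 (adjusted p = 1.4e-06), which left 24.1%. ND4 had 8328, 8273, 8111 and 8157 CPM in the control libraries and 2891, 2128, 2727 and 2715 CPM in the knockouts. ND5 had 12187, 11323, 11545 and 11254 CPM against 3965, 3329, 4558 and 4016 CPM. For these the knockout level was 31.8% and 34.3% of the control level, with log2 fold changes of -1.65 ± 0.12 (adjusted p = 2.3e-06) and -1.55 ± 0.12 (adjusted p = 4.3e-06), and the groups again stood apart.

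ND6, the complex I subunit made from the opposite strand, was the least reduced of the 11. It had 4062, 3839, 3713 and 3618 CPM in the control libraries and 1608, 1118, 1775 and 1663 CPM in the knockouts. All 4 knockout libraries were below all 4 controls, and knockout 2 was again the lowest. The log2 fold change was -1.31 ± 0.14 (SE, adjusted p = 3.4e-05), and 40.5% of the control level remained. The 3' end of ND5 overlaps ND6 on the other strand. Although the library kit marks strand, its use in the counting is not given in the sources used here, so ND6 mRNA and antisense RNA of the heavy-strand precursor cannot be told apart. The libraries were selected by polyA, and how well this captures ND6 mRNA was not tested.

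COX1 is the catalytic subunit of cytochrome c oxidase (complex IV) and CYTB the central subunit of complex III. COX1 had 33632, 35165, 35637 and 34585 CPM in the control libraries and 12043, 8854, 10312 and 10932 CPM in the knockouts. CYTB had 19253, 19544, 18986 and 19040 CPM against 7219, 5437, 6856 and 6715 CPM. The controls of CYTB lay within a narrow band, and in both genes the groups were wide apart. COX1 fell to 30.3% (log2 fold change -1.72 ± 0.14, adjusted p = 5.0e-06) and CYTB to 34.1% (-1.55 ± 0.13, adjusted p = 5.3e-06).

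The 4 mRNAs whose windows nearly all occur in nuclear transcripts had values of the same sign. COX2, the complex IV subunit that receives electrons from cytochrome c, had 7.19, 9.89, 8.95 and 6.93 CPM in the control libraries and 2.38, 2.93, 2.15 and 2.27 CPM in the knockouts (log2 fold change -1.76 ± 0.16, adjusted p = 1.2e-05). COX3, a further complex IV subunit, had 6.46, 6.87, 4.80 and 6.49 CPM against 1.83, 2.198, 2.39 and 1.67 CPM (-1.60 ± 0.17, adjusted p = 3.0e-05). Both were lower in every knockout library than in any control. ATP6, the subunit that forms the proton path of ATP synthase, had 3.39, 3.73, 4.15 and 3.65 CPM against 1.17, 1.14, 0.867 and 0.994 CPM (-1.84 ± 0.17, adjusted p = 1.0e-05). ND3, a small complex I subunit, had 6, 10, 6 and 17 counts in the control libraries and 6, 6, 3 and 0 counts in the knockouts, where a count of 0 allows up to 3. On the CPM scale the groups of ND3 did not overlap, but the log2 fold change of -2.04 ± 0.61 had an adjusted p of 0.0156 and did not pass. DESeq2 gave ND3 -2.10 with an adjusted p of 0.0062.

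**Figure D2:**
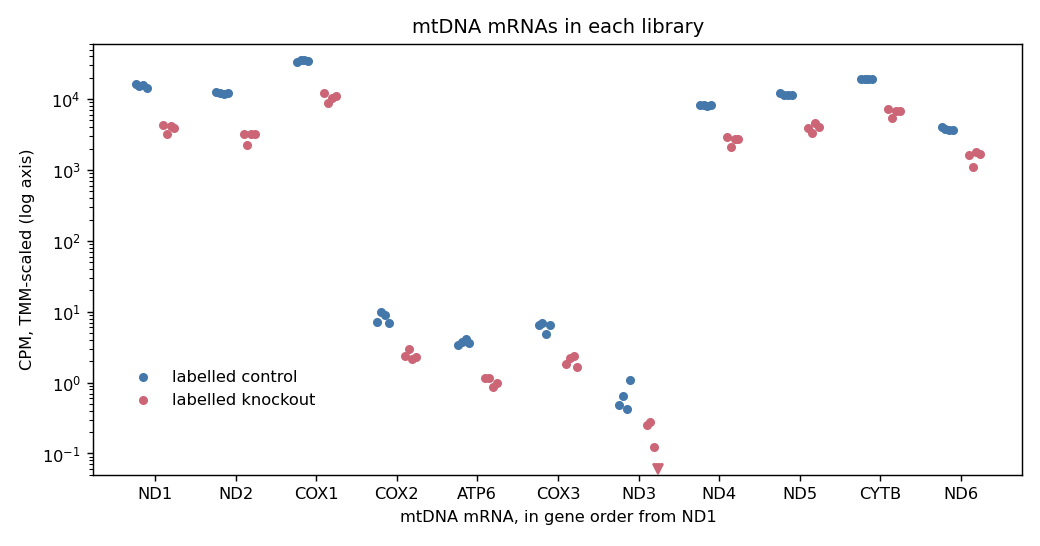
TMM-scaled CPM of each mtDNA mRNA in each library (vertical, log axis), in gene order from ND1, with 4 libraries labelled control and 4 labelled knockout; points are libraries and the triangle marks a count of 0. In all 11 mRNAs the knockout points lie below the control points, and COX2, ATP6, COX3 and ND3 lie orders of magnitude below the rest.

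The scaling of the libraries changed the size of the fall but not its direction. With library totals alone in place of TMM factors, which moved the median over all genes from 0.065 to 0.73 on the log2 scale, the same 10 mRNAs stayed past the threshold with log2 fold changes from -1.39 to -0.64. As a share of all counts, with no scaling, the 11 mRNAs held 8.26%, 8.57%, 7.90% and 8.70% in control replicates 1 to 4 and 4.33%, 3.51%, 4.002% and 4.32% in knockout replicates 1 to 4. The groups did not overlap, with means of 8.36% ± 0.359 and 4.04% ± 0.382 (SD, n = 4 each; two-sided exact permutation p = 0.0286, the lowest value open to 4 libraries against 4). When the 20 most abundant nuclear genes were left out of the total, the shares were 12.6% ± 0.204 and 5.002% ± 0.486 (exact permutation test, p = 0.0286). Nuclear genes with a mean level over all 8 libraries at or above that of ND6, compared as CPM and not per length, numbered 30. Of these, 28 were called lower and 2 higher, beside 21.1% and 23.6% of all genes. Their median log2 fold change was -1.41, beside -1.72 for the 11 mRNAs. The counts leave out duplicate read pairs, and how far this lowers those of densely covered mRNAs in either group was not tested. This limit holds for the fold changes, shares and ratios of the mtDNA mRNAs alike.

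Whether the mRNAs fell in proportion was read from their shares. In 5 of the 11 the shares of the groups did not overlap, while no share passed its exact test after adjustment. Among a library's own mtDNA counts, which need no scaling between libraries, ND1 made up 15.5%, 14.3%, 14.8% and 13.9% in the control libraries and 12.3%, 12.4%, 12.4% and 11.9% in the knockouts. ND2 made up 11.97%, 11.7%, 11.3% and 11.8% against 9.04%, 8.65%, 9.57% and 9.58%. Both shares, from the genes nearest the start of the heavy-strand precursor among the mRNAs, were lower in every knockout library. In the opposite direction, CYTB made up 18.02%, 18.52%, 17.97% and 18.46% of the controls' mtDNA counts and 20.5%, 20.6%, 20.4% and 20.2% of the knockouts'. ND6 made up 3.80%, 3.64%, 3.52% and 3.51% against 4.56%, 4.23%, 5.28% and 5.01%. The share of ND4 was 7.81% ± 0.0967 in the control libraries and 8.13% ± 0.0691 in the knockouts (SD, n = 4 each). In these 5 mRNAs the shares of the groups did not overlap (p = 0.0286 for each by exact permutation). That is the lowest p open to 4 libraries against 4. Adjusted over the 11 mRNAs it was 0.0629, and 0 of the 11 passed 0.05. With 5 mRNAs at this floor none could pass, so the lack of a pass does not show that the mRNAs fell in proportion. At an unadjusted p under 0.05 there were 5, and 3 in the edgeR fit that follows. Shares within a library add up to the whole, so lower shares of some mRNAs go with higher shares of others. The 5 differences are thus not separate findings.

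COX1, with the most counts, made up 33.0% ± 1.04 against 32.8% ± 1.52 (SD, n = 4 each; exact permutation test, p = 0.771, adjusted 0.849). ND5 made up 10.99% ± 0.290 and 12.4% ± 0.962, and its groups overlapped (exact permutation test, p = 0.0571, adjusted 0.105). In an edgeR fit with each library scaled to its mtDNA total, chosen after the shares were seen, the log2 fold change relative to the whole was -0.34 ± 0.093 for ND2 (SE), -0.26 ± 0.092 for ND1 and 0.40 ± 0.10 for ND6. It was 0.16 ± 0.089 for CYTB and 0.060 ± 0.088 for ND4, whose shares did not overlap, and neither had an unadjusted p under 0.05. For ND5 it was 0.17 ± 0.098 and for COX1 -0.0087 ± 0.093. These are given as a description, since with that scaling the adjustment over all genes hardly changes a p.

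**Figure D3:**
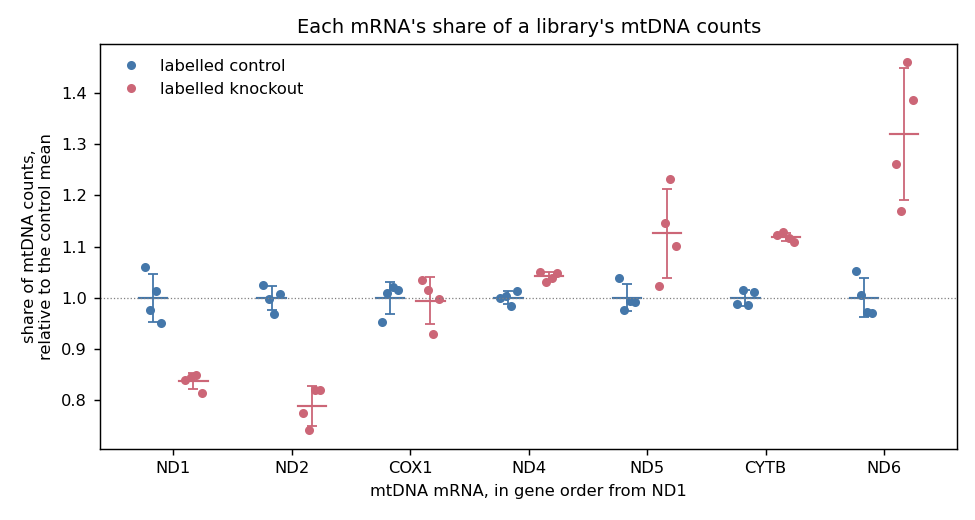
Share of a library's mtDNA counts on each of the 7 deeply counted mRNAs, divided by the mean share of the controls (vertical, no unit), in gene order from ND1; points are libraries, bars the mean and SD of 4 libraries per group. The knockout points of ND1 and ND2 lie below and those of ND4, CYTB and ND6 above all control points, while COX1 and ND5 overlap.

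Ratios between mRNAs need no total. These 7 ratios were chosen after the shares were seen. The count of ND1 over that of CYTB, the first and the last mRNA gene on the heavy-strand precursor, was 0.861, 0.772, 0.826 and 0.753 in the control libraries and 0.600, 0.602, 0.611 and 0.589 in the knockouts. The knockout values were closely grouped and lay below all controls (0.803 ± 0.0491 against 0.601 ± 0.00866, SD, n = 4 each; exact permutation test, p = 0.0286, adjusted 0.05 over the 7 ratios). ND2 over CYTB gave 0.640 ± 0.0167 and 0.451 ± 0.0248, COX1 over CYTB 1.81 ± 0.0536 and 1.61 ± 0.0713, and ND4 over CYTB 0.428 ± 0.0038 and 0.398 ± 0.00544, each with no overlap and the same exact permutation p. All the ratios that stood apart have CYTB as denominator, and the share of CYTB was itself higher in every knockout library. Their p-values are thus not separate findings. The ratio of ND5 to CYTB was 0.603 ± 0.0233 against 0.606 ± 0.0475 (exact permutation test, p = 0.914). The ratio of ND6 to ND5, 0.329 ± 0.00878 against 0.386 ± 0.0352, overlapped (exact permutation test, p = 0.0571), and so did that of ND1 to ND2 (exact permutation test, p = 0.171).

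The nuclear factors, which were not matched to the mRNAs in level, moved far less than the mRNAs. Of the 28, 4 were called higher and 8 lower (42.9% called, beside 44.7% of all genes), and the groups did not overlap in 16, beside 53.4% of all genes. Their log2 fold changes ran from -0.77 to 0.54 with a median of -0.16. This median lay 0.22 below that of all genes with TMM factors and with library totals alone, but its sign turned, from -0.16 to 0.51, when totals alone were used, and 22 of the 28 were then called higher and 0 lower. With RLE factors and with DESeq2, 1 was called higher (Mterf3) and 11 lower. Averaged over the 28 in each library, log2 CPM was 4.83 ± 0.0719 in the control libraries and 4.72 ± 0.0517 in the knockouts (SD, n = 4 each). The mean log2 CPM of the 11 mRNAs minus that of the 28 factors, a difference within each library from which its scaling factor drops out but for the prior count, was 4.42, 4.50, 4.37 and 4.60 in the control libraries and 2.96, 2.84, 2.98 and 2.84 in the knockouts. The gap thus narrowed by 1.57 on the log2 scale, with every knockout library below every control. Since the members were chosen with earlier results known, no test is given for it.

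**Figure D4:**
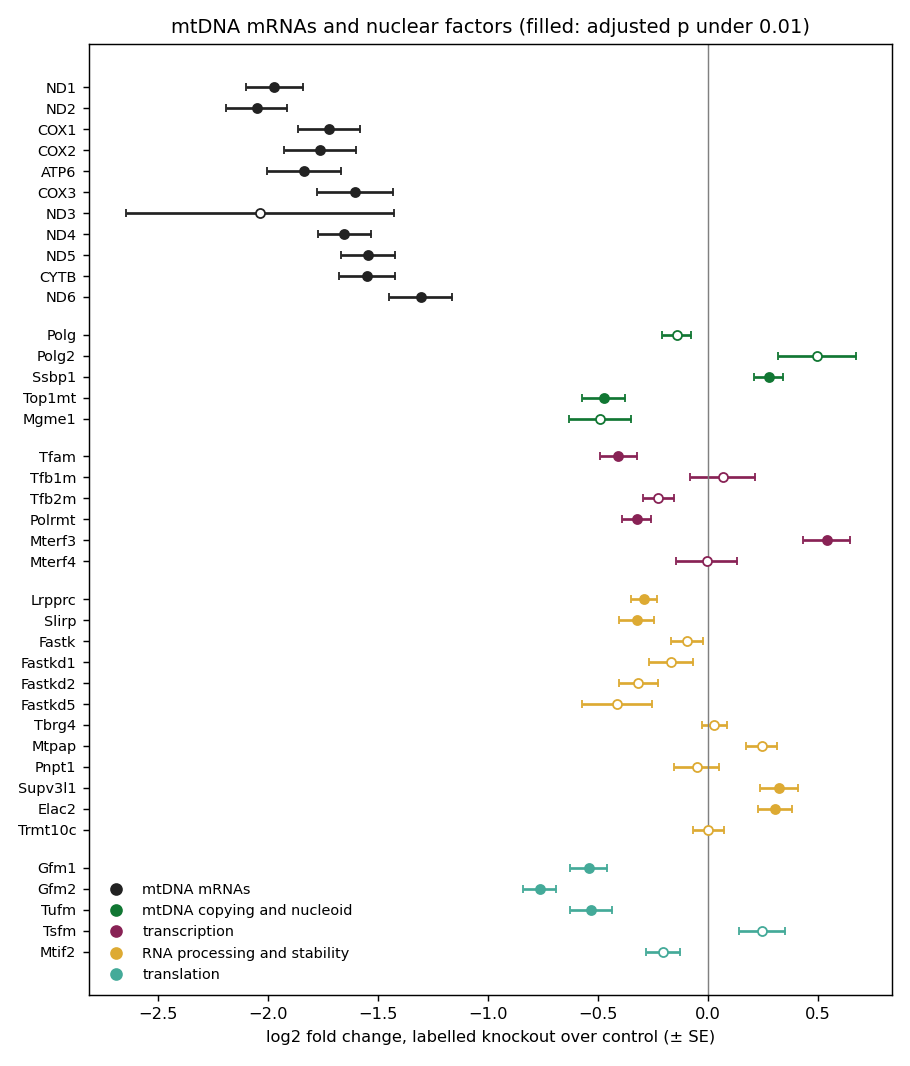
Log2 fold change of the 11 mtDNA mRNAs and the 28 nuclear factors, labelled knockout over labelled control (horizontal, with SE, TMM factors, n = 4 libraries per group), coloured by role and filled where the adjusted p was under 0.01. All mRNAs lie between -2.05 and -1.31 and all factors between -0.77 and 0.54; with library totals alone the mRNAs stay below 0, while most factors move above it.

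The shares called in the 4 roles, 40% for copying, 50% for transcription, 33.3% for RNA processing and 60% for translation, rest on few genes each and stand beside 44.7% of all genes. Of the 5 factors that copy mtDNA and keep it in order, 1 was called higher and 1 lower. Ssbp1 (chromosome 6, 40471415 to 40481823), the protein that coats single-stranded mtDNA, had 20.9, 21.9, 23.3 and 20.9 CPM in the control libraries and 26.7, 25.6, 26.3 and 26.6 CPM in the knockouts. Its 4 knockout values were close together and above all controls, with a log2 fold change of 0.28 ± 0.065 (SE, adjusted p = 0.0046), positive in each scaling tried. Top1mt (chromosome 15, 75657033 to 75678790), which relaxes supercoils of mtDNA, had 16.3, 19.1, 21.5 and 20.2 CPM against 13.6, 14.9, 13.0 and 14.0 CPM. Its knockout libraries were all lower, at -0.47 ± 0.098 (adjusted p = 0.0021), but its sign turned to 0.20 with library totals alone. The catalytic subunit of the polymerase, Polg, had 52.4 ± 2.79 CPM in the control libraries and 47.5 ± 1.99 CPM in the knockouts (SD, n = 4 each; adjusted p = 0.079). Its accessory subunit Polg2 had 2.55 ± 0.588 and 3.62 ± 0.175 CPM (adjusted p = 0.034), and the nuclease Mgme1 19.1 ± 2.87 and 13.6 ± 2.25 CPM (adjusted p = 0.013). For Polg2 and Mgme1 the groups did not overlap, but neither passed the threshold. Mgme1 did with RLE factors (adjusted p = 0.0076), with DESeq2 (0.0016) and without knockout 1 (0.0058).

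Among the 6 transcription factors, 1 was called higher and 2 lower. Tfam (chromosome 10, 71225477 to 71238044), which packages mtDNA and starts transcription, had 55.1, 50.5, 62.3 and 54.2 CPM in the control libraries and 41.4, 37.6, 43.5 and 44.95 CPM in the knockouts. Polrmt (chromosome 10, 79736125 to 79746581), the RNA polymerase, had 40.3, 37.1, 38.6 and 40.1 CPM against 31.5, 33.1, 31.4 and 28.5 CPM. In both the knockout libraries lay below all controls. The log2 fold change was -0.41 ± 0.084 for Tfam (SE, adjusted p = 0.0021) and -0.32 ± 0.067 for Polrmt (adjusted p = 0.0020), and with library totals alone the signs turned, to 0.26 and 0.34.

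Mterf3 (chromosome 13, 66912095 to 66933072), a repressor of mitochondrial transcription, moved the other way. It had 17.5, 14.4, 14.3 and 14.6 CPM in the control libraries and 22.6, 18.6, 22.2 and 24.7 CPM in the knockouts. No knockout value fell within the controls, and the log2 fold change of 0.54 ± 0.11 (SE, adjusted p = 0.0017) was the highest of the 28 factors. It stayed past the threshold and positive in every alternative run. The initiation factor Tfb2m had 31.1 ± 1.58 and 26.6 ± 1.59 CPM (SD, n = 4 each; adjusted p = 0.019), the rRNA methyltransferase Tfb1m 7.69 ± 1.57 and 8.04 ± 0.442 CPM (adjusted p = 0.72), and Mterf4, which acts in ribosome assembly, 7.15 ± 1.25 and 7.10 ± 0.353 CPM (adjusted p = 0.97). None of these 3 passed, although Tfb2m did with RLE factors (adjusted p = 0.0064) and with DESeq2 (0.0038). Exons of Sned1 lie opposite 35.2% of the exon bases of Mterf4 in GENCODE M21. The part of the bases counted for Mterf4 that they cover was not determined.

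Of the 12 factors of RNA processing and stability, 2 were called higher, 2 lower and 8 neither. Lrpprc (chromosome 17, 84705247 to 84790786) and Slirp (chromosome 12, 87443896 to 87449924) encode partners in a complex that binds and stabilizes mtDNA mRNAs and promotes their polyadenylation. Lrpprc had 121, 125, 126 and 122 CPM in the control libraries and 98.7, 98.5, 107 and 99.7 CPM in the knockouts. Slirp had 24.3, 24.1, 25.7 and 21.2 CPM against 20.2, 18.2, 19.2 and 18.5 CPM. Both were lower in every knockout library, with log2 fold changes of -0.29 ± 0.058 (SE, adjusted p = 0.0017) and -0.32 ± 0.08 (adjusted p = 0.0058), and both signs turned with library totals alone, to 0.38 and 0.35. The call of Slirp was lost without control 1 (adjusted p = 0.0144), control 2 (0.0172), control 3 (0.0197) or knockout 4 (0.0126), and with the adipocyte markers as a covariate (0.0229). Exons of Snw1 lie opposite 93.9% of the exon bases of Slirp in GENCODE M21. How many of the 419 bases counted for Slirp they cover was not determined, so reads of Snw1 may be among the Slirp counts.

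The helicase of the mitochondrial RNA degradation machinery, Supv3l1 (chromosome 10, 62429378 to 62449693), had 16.2, 15.5, 17.9 and 15.8 CPM in the control libraries and 21.8, 19.8, 18.6 and 21.5 CPM in the knockouts. Elac2 (chromosome 11, 64979035 to 65002076), which cuts precursors at the 3' end of tRNAs, had 36.2, 33.9, 34.9 and 32.5 CPM against 45.9, 39.2, 45.3 and 39.1 CPM. In both every knockout library was above every control, with log2 fold changes of 0.32 ± 0.085 (SE, adjusted p = 0.0084) and 0.30 ± 0.077 (adjusted p = 0.0069), positive in each scaling tried. These calls, and that of Ssbp1, were near the threshold. Each was lost with RLE factors, with DESeq2 and in 6 of 8 leave-outs of a single library, in which the adjusted p reached 0.0202 for Ssbp1 without knockout 4, 0.027 for Supv3l1 without knockout 4 and 0.0347 for Elac2 without knockout 1. The other leave-outs that lost a call were controls 1, 2 and 4 and knockouts 1 and 3 for Ssbp1, controls 1, 2 and 4 and knockouts 1 and 2 for Supv3l1, and controls 2, 3 and 4 and knockouts 3 and 4 for Elac2.

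The remaining 8 did not pass. Pnpt1, the exoribonuclease partner of SUPV3L1, had 20.6 ± 1.68 CPM in the control libraries and 19.8 ± 2.39 CPM in the knockouts (SD, n = 4 each; adjusted p = 0.68), and Trmt10c, a subunit of the RNase P that cuts the 5' end of tRNAs, 20.4 ± 0.471 and 20.4 ± 1.13 CPM (adjusted p = 0.99). Mtpap, the polyA polymerase of mitochondria, had 20.5 ± 1.43 and 24.2 ± 0.546 CPM with no overlap (adjusted p = 0.0148). It passed without control 1 (adjusted p = 0.0071) and with upper-quartile factors (0.0083). Of the FASTK family, RNA-binding proteins that act on mtDNA transcripts, the log2 fold change was -0.095 for Fastk, -0.17 for Fastkd1, -0.32 for Fastkd2, -0.41 for Fastkd5 and 0.028 for Tbrg4, with adjusted p from 0.0122 for Fastkd2 to 0.70 for Tbrg4. Without control 4, Fastkd2 (adjusted p = 0.0023) and Fastkd5 (0.0056) passed, and Fastkd2 also did with RLE factors (0.0072) and DESeq2 (0.0028). In GENCODE M21 exons of Ubox5 overlap 65.2% of the exon bases of Fastkd5 on the same strand. Exons of Slc4a2 lie opposite 26.1% of those of Fastk, so reads of both genes may be shared. The part of the bases counted for Fastkd5 and Fastk that these exons cover was not determined.

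The factors of mitochondrial translation had the lowest median of the 4 roles, -0.53, with 3 of 5 called lower and 0 higher (beside 21.1% and 23.6% of all genes). Gfm2 (chromosome 13, 97137937 to 97181196), which recycles ribosomes, had 121, 111.6, 111.7 and 103 CPM in the control libraries and 68.5, 59.9, 70.1 and 64.4 CPM in the knockouts. Its groups stood far apart, and its log2 fold change of -0.77 ± 0.075 (SE, adjusted p = 1.6e-05) was the lowest of the 28 factors; it was -0.098 with library totals alone (adjusted p = 0.145), the single factor whose sign stayed negative there. The elongation factor gene Gfm1 (chromosome 3, 67430115 to 67475068) had 147, 145, 141 and 133 CPM against 101, 108, 94.1 and 84.9 CPM. Tufm (chromosome 7, 126487355 to 126490731), which brings charged tRNAs to the ribosome, had 118, 98.5, 101 and 92.4 CPM against 81.1, 70.4, 66.5 and 65.5 CPM. Both were lower in all 4 knockout libraries, at -0.54 ± 0.083 (adjusted p = 3.2e-04) and -0.53 ± 0.097 (adjusted p = 9.4e-04), and both turned slightly positive with library totals alone, 0.13 and 0.14. Tsfm, the exchange factor for TUFM, had 17.3 ± 1.81 and 20.4 ± 2.001 CPM (SD, n = 4 each; adjusted p = 0.064), and the initiation factor Mtif2 40.2 ± 2.02 and 34.8 ± 3.12 CPM (adjusted p = 0.040). Neither passed, although Mtif2 did without knockout 1 (adjusted p = 0.0091).

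**Figure D5:**
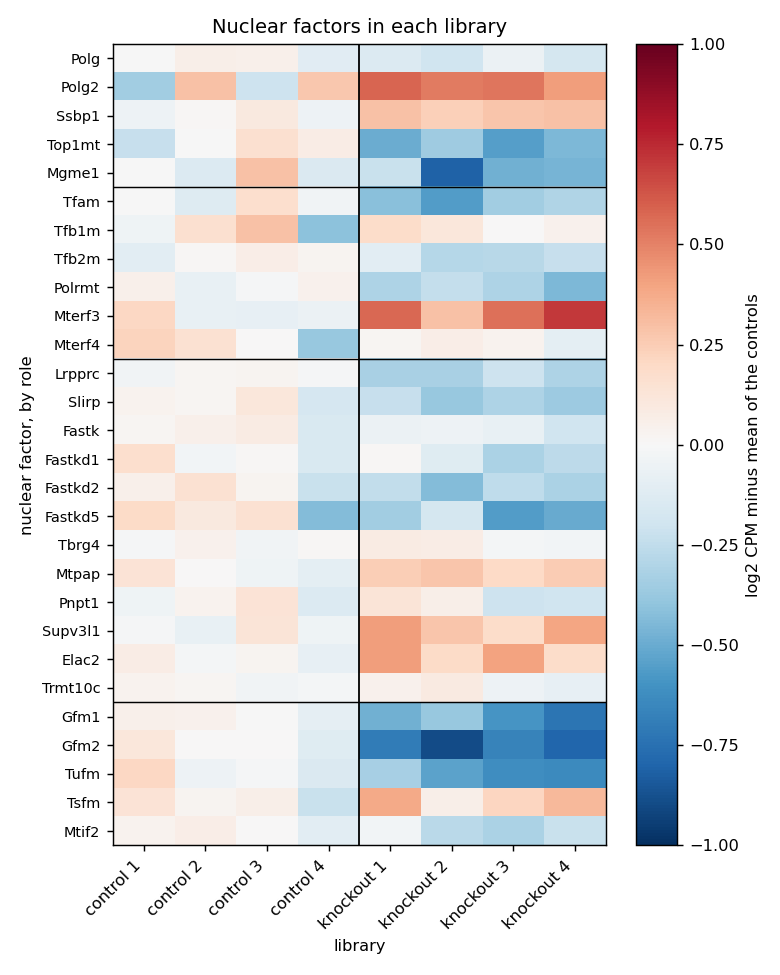
Log2 CPM of each nuclear factor minus the mean of the controls (colour), in 4 control and 4 knockout libraries (columns), ordered by role (rows). Gfm1, Gfm2 and Tufm are lower in all 4 knockout columns and Mterf3 is higher in all 4; these values use TMM factors, and with library totals alone Gfm1 and Tufm turn positive.

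Promoter sequence was looked at because nuclear genes for mitochondria are classically bound by NRF1 and by ETS factors of the GABPA type. RefSeq promoters (GRCm38.p6, 250 bases before to 50 after the start of the gene) matched 25 of the 28 factors, all but Top1mt, Mterf3 and Mtpap. On either strand, CCGGAAGT, the ETS word, occurred in 6 of 25 (24%): Fastkd5, Gfm1, Polg, Tfam, Trmt10c and Tufm, beside 3.89% of all 32851 promoters. The NRF1 core GCGCATGC occurred in Polrmt and Tfb2m, 2 of 25 (8%), beside 2.71%. The longer palindromic NRF1 word, of which this core is part, was in 0 of 25 (0.971% of all), and TGATGNAA, the word of the amino acid response element, in 1 of 25, Fastkd2 (3.97% of all). Stretches of 3 factors that were called lower with TMM factors are shown with the match in capitals, at 47 and 2 bases before the start of Tfam and Tufm and 133 before that of Polrmt.
Tfam, chr10:71238042-71238141, minus strand: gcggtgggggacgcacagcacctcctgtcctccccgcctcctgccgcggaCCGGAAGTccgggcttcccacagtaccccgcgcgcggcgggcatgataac
Tufm, chr7:126487303-126487374, plus strand: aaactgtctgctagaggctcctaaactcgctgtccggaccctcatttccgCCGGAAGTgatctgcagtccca
Polrmt, chr10:79746665-79746764, minus strand: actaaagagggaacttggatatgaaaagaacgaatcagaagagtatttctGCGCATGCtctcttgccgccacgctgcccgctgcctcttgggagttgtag
Of the 6 factors with the ETS word, 3 were called lower (Gfm1, Tfam and Tufm) and 3 were not called (Fastkd5, Polg and Trmt10c). This stands beside 8 called lower of the 28 factors, and beside 21.1% called lower and 44.7% called of all genes. Whether the word goes with the fall was not tested. A match describes letters and not a bound site.

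The wider pathway was read from lists of 89 further genes, of which 19 were called higher and 19 lower (42.7%, beside 44.7% of all genes), with a median of -0.058. With library totals alone these were 71 and 3. Among 21 further genes of translation and ribosome assembly 0 were called higher and 6 lower, with a median of -0.26 (28.6% called, beside 44.7% of all genes, of which 21.1% were lower). Taco1, a translational activator of COX1, had 62.2 ± 11.02 CPM in the control libraries and 27.4 ± 2.25 CPM in the knockouts (SD, n = 4 each; log2 fold change -1.18, adjusted p = 3.4e-05), and Pdf, which removes formyl groups from new proteins, 62.5 ± 7.36 and 36.9 ± 2.12 CPM (-0.76, adjusted p = 6.3e-05; -0.086 and 0.31 with library totals alone). Gatc, a subunit of the amidotransferase that charges tRNA with glutamine, was at -0.40 (adjusted p = 0.0012) and the ribosome-bound GTPase Guf1 at -0.41 (adjusted p = 0.0073). The call of Guf1 was lost in 6 of 8 leave-outs (all but those of knockouts 1 and 2; adjusted p up to 0.0208, without control 4) and with upper-quartile factors (0.013), and the signs of Gatc and Guf1 turned with library totals alone, to 0.28 and 0.26.

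Of 24 genes of RNA modification 9 were called higher and 4 lower (54.2% called, beside 44.7% of all genes), and their median of 0.094 was close to the 0.065 of all genes. Yrdc, which acts in threonylcarbamoyl modification of tRNA, had 7.34 ± 1.37 and 20.6 ± 1.73 CPM (SD, n = 4 each; log2 fold change 1.495, adjusted p = 8.3e-06), and the tRNA demethylase gene Alkbh1, whose exons overlap Slirp by 122 bases, 3.66 ± 0.554 and 7.52 ± 0.793 CPM (1.04, adjusted p = 1.8e-04). Osgepl1, which acts in the same threonylcarbamoyl step within mitochondria, was lower at 34.4 ± 2.88 and 18.8 ± 0.877 CPM (-0.87, adjusted p = 1.0e-05), as was the rRNA methyltransferase Mrm2 (-0.81, adjusted p = 9.6e-04). With library totals alone these 2 calls were lost (-0.20, adjusted p = 0.019, and -0.14, adjusted p = 0.42). Several genes of this list, Yrdc among them, also act on tRNAs of the cytosol.

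Of 15 further genes of RNA processing and stability, 4 were called higher and 3 lower (46.7% called, beside 44.7% of all genes). Trnt1, which adds the CCA end to tRNAs, rose from 12.6 ± 1.12 to 23.3 ± 1.25 CPM (SD, n = 4 each; log2 fold change 0.88, adjusted p = 1.7e-05), and Hsd17b10, a subunit of RNase P beside TRMT10C, from 43.1 ± 3.41 to 74.1 ± 8.87 CPM (0.78, adjusted p = 7.7e-05). Grsf1, an RNA-binding protein of mitochondrial RNA granules, fell from 172.9 ± 3.58 to 107.4 ± 3.70 CPM (-0.69, adjusted p = 6.3e-06; -0.018 with library totals alone), and Ptcd3, a protein of the small ribosomal subunit, was at -0.32 (adjusted p = 0.0032; 0.35 with library totals alone). The call of Ptcd3 was lost without control 2 (adjusted p = 0.0107). Among 5 further genes of transcription, Mterf2, a relative of MTERF3, was the 1 called: it fell from 12.6 ± 1.46 to 6.68 ± 0.454 CPM (-0.91, adjusted p = 7.4e-05; -0.24 and 0.046 with library totals alone).

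For mtDNA copying, 2 of 10 further genes were called higher and 1 lower (30% called, beside 44.7% of all genes). Endog, a mitochondrial nuclease, fell from 26.1 ± 2.47 to 14.0 ± 0.856 CPM (SD, n = 4 each; log2 fold change -0.90, adjusted p = 1.7e-05; -0.23 and 0.055 with library totals alone). Atad3a, a membrane ATPase of the nucleoid's surroundings, rose from 40.8 ± 2.83 to 67.9 ± 5.52 CPM (0.74, adjusted p = 3.3e-05), and the flap nuclease gene Fen1 was at 0.55 (adjusted p = 0.0064), a call lost in 7 of 8 leave-outs (all but that of control 1; adjusted p up to 0.0184, without control 4), with RLE factors (0.01004) and with the adipocyte covariate (0.0146). Of 14 genes of deoxynucleotide supply, 4 were called in each direction (57.1% called, beside 44.7% of all genes). Suclg1 and Sucla2, subunits of the succinyl-CoA ligase that is needed to maintain mtDNA, fell from 320.0 ± 17.3 to 148.8 ± 10.5 CPM (-1.10, adjusted p = 1.6e-06) and from 615 ± 45.8 to 323 ± 34.9 CPM (-0.93, adjusted p = 2.4e-05). Rrm2, the ribonucleotide reductase subunit of dividing cells, rose from 1.10 ± 0.351 to 4.43 ± 2.45 CPM (1.99, adjusted p = 0.0028), and the nucleoside diphosphate kinase gene Nme4 from 1.05 ± 0.341 to 3.17 ± 0.701 CPM (1.59, adjusted p = 6.0e-04).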

How the data were processed

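The members and lists were chosen with earlier results of these data known. Raw counts per gene were deposited; the authors trimmed reads (cutadapt), mapped them with STAR 2.5.4b to GRCm38 and counted unique read pairs on exons with Rsubread, leaving out multimapping and duplicate pairs and sparse genes. bcl2fastq 2.20.0.422 and DESeq2 1.32.0 are also named in the submitters' processing notes. The annotation release and the use of strand are not given in the sources used here. The authors' FPKM values, made from the same counts and the deposited exon width, were used only as a check. The deposited table also holds the authors' log2 fold changes, p-values and mean signal, which were not used. No unmapped column was present.

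All 14012 genes were tested with edgeR 4.0.16 (quasi-likelihood test, TMM factors, group alone, R 4.3.3, limma 3.58.1) with Benjamini-Hochberg adjustment over all genes at 0.01. Log2 CPM used a prior count of 2. Shares and ratios were compared with two-sided exact permutation of the 70 assignments of libraries. Procedures were tested on simulated data. Named are all 39 members, Grpel1, and from each further list the 2 highest and 2 lowest log2 fold changes past the threshold. The labels and the study's methods give 1 mouse per library. Replicates differed by far more than counting noise (chi-square over its degrees of freedom from 17.2 to 42.7). Limits from counts cover counting error only. The labels do not say that replicate numbers pair the libraries, and the main fit did not pair them. Alternatives covered the scaling, a filter on low counts, DESeq2 1.42.0, the threshold, a replicate block, adipocyte markers as a covariate and each library left out. Twnk, Prorp, Rcc1l, Mrm3, Mtrfr and Mtres1 were not analysed here.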

Additional observations from a re-analysis of the deposited data

Results flagged for a closer look

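In 5 of 102 groups of 4 libraries tested, 1 library stood apart from the other 3 by Dixon's criterion, and chance flags about 1 in 20. ND2 had 2288 CPM in knockout 2, beside 3179 to 3218 in the other knockouts. Mterf3 had 17.45 CPM in control 1, beside 14.31 to 14.56 in the other controls. Lrpprc had 106.7 CPM in knockout 3, beside 98.5 to 99.69. Fastk had 164.4 CPM in knockout 4, beside 179.1 to 181.9. COX2 made up 0.01109% of the mtDNA counts in knockout 2, beside 0.006381% to 0.006828%. Without knockout 2 the log2 fold change of ND2 was -1.96, still past the threshold, and the calls of Mterf3 and Lrpprc held in all 8 leave-outs.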

How the results depend on the processing

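The mtDNA mRNAs called lower, 10 with TMM factors, were 10 or 11 in every alternative, 11 with DESeq2 and at an adjusted p under 0.05, which added ND3; the filter on low counts removed ND3. The nuclear factors called higher, 4 with TMM factors, were 1 with RLE factors and with DESeq2 (Mterf3), 22 with library totals alone, 2 with the adipocyte markers as a covariate and 1 to 3 when 1 library was left out. Those called lower, 8, were 0 with totals alone, 11 with RLE factors and with DESeq2 (1 higher and 11 lower in each) and 13 at an adjusted p under 0.05. The 38 further genes became 74 with totals alone. All genes called went from 6265 (3303 higher, 2962 lower) to 9371 (8498 and 873) with totals alone, and 5196 to 5867 were called when 1 library was left out. The difference in mtDNA share, -4.32 points, ran from -4.47 to -4.14 with a library left out, with an exact permutation p of 0.0571, the smallest that 3 against 4 allow. Of the shares within mtDNA counts 0 passed an adjusted p of 0.05 over the 11 mRNAs, with 5 at the lowest exact permutation p, 0.0286. The edgeR fit scaled to the mtDNA total, adjusted over all genes, had 3 under 0.05 and 2 under 0.01. The cause of these changes was not tested.

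With totals alone the log2 fold changes of Polg (0.52), Top1mt (0.20), Mgme1 (0.18), Tfam (0.26), Tfb2m (0.44), Polrmt (0.34), Mterf4 (0.66), Lrpprc (0.38), Slirp (0.35), Fastk (0.58), Fastkd1 (0.50), Fastkd2 (0.35), Fastkd5 (0.26), Pnpt1 (0.62), Gfm1 (0.13), Tufm (0.14), Mtif2 (0.46), Ptcd3 (0.35), Guf1 (0.26), Gatc (0.28) and Grpel1 (0.61) turned positive. Values near 0 also changed sign. Tbrg4 was -0.018 with DESeq2, -0.017 with RLE factors and from -0.0026 to 0.042 with a library left out. Trmt10c was -0.045 with DESeq2 and with RLE factors, -0.016 with the adipocyte covariate, -0.0005 with the mtDNA mRNAs left out of library sizes and from -0.044 to 0.0135 with a library left out. Mterf4 was 0.0096 with the adipocyte covariate, 0.026 with upper-quartile factors and from -0.12 to 0.067 with a library left out, and Tfb1m ran from -0.059, without control 4, to 0.17.

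The labels do not say whether the replicate numbers pair the libraries. The deviations of same-numbered libraries correlated at 0.118, 0.0031, 0.4222 and 0.138, and those of differently numbered libraries at -0.295 to 0.1125. These values do not settle whether the libraries are paired, and the main fit used the group alone. With the replicate block 6123 genes were called, with 2 nuclear factors higher and 9 lower, and Mterf4 was at 0.0048 and Trmt10c at -0.0003. The block also moved Mgme1 past the threshold and lost the calls of Ssbp1, Supv3l1 and Fen1. ND3 had the fewest counts of the members, 0 to 17 per library.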
